A study of Mus musculus with 96 samples.

Results

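The lateral superior olive (LSO) is an auditory brainstem nucleus that compares the sound reaching both ears, and its neurons were sequenced one by one after patch-clamp recording. The genes described here are 9 transcription factors, Maf, Rorb, Rora, En1, Atoh1, Barhl1, Foxp1, Foxp2 and Meis2, of the 38887 genes listed. They were put together by name as candidate factors of principal neurons, with the class differences of these libraries already known, so their levels are a description and carry no test. All 9 genes were found in the table by their Ensembl identifier. Values are TPM (transcripts scaled to gene length and to the total of a library), and detection means a value of at least 1 TPM.

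Libraries came from acute coronal brainstem slices of C57BL/6J mice of both sexes at postnatal day 11 ± 1. Each library of a neuron was made from the cytoplasm that a pipette aspirated after recording, and the study reports that the nucleus was taken too. The neurons are grouped by their firing pattern label: principal neurons of the LSO (pLSOs) with Onset or Sustained firing, and lateral olivocochlear neurons (LOCs) with Delayed firing, which project back to the cochlea. Negative controls were pipettes that touched the slice without harvesting a neuron. After 8 of 96 libraries were left out, 41 Onset and 11 Sustained neurons, together 52 pLSOs, were compared with 28 LOCs and 8 negative controls. The labels name no animal, so a group stands for 1 sample only, whatever its number of neurons, and p-values are not given. Intervals are exact Clopper-Pearson 95% intervals, and where no library of a group held a gene, the upper limit in the text is 3 divided by the number of libraries. Neither covers more than the error of counting libraries.

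The libraries used held a median of 2560.5 detected genes in pLSOs (range 1333 to 6276), 2394 in LOCs (range 1175 to 4408) and 821 in negative controls (range 285 to 1271). Spp1, a marker of pLSOs, was detected in 96.2% of pLSOs and 3.57% of LOCs, and Calca, a peptide gene of LOCs, in 28.8% and 92.9%. The study ranks each of these genes first for its cluster from these same libraries, so their shares are not an independent check of the classes. The controls were not free of transcripts of the slice. Of the 5 neuron markers examined, Snap25 was detected in 7 of 8 controls, Map2 in 5, Stmn2 in 4, Tubb3 in 2 and Rbfox3 in 0. Spp1 was detected in 4 of 8 controls and Calca in 5. Each of the 5 oligodendrocyte markers examined was detected in at least 1 control, and their summed level had a median of 3642 TPM in controls (range 389 to 7794) against 107.5 TPM in pLSOs (range 0 to 6658) and 231.5 TPM in LOCs (range 1 to 5083).

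Transcription factors keep a neuron in its identity by binding short DNA motifs and setting which genes are read. MAF is a large basic leucine zipper protein, RORB and RORA are orphan nuclear receptors that bind as monomers, FOXP1 and FOXP2 are forkhead repressors, and MEIS2 is a homeodomain protein of the TALE class that works together with PBX and HOX proteins. ATOH1 is the basic helix-loop-helix factor that founds many auditory brainstem lineages, BARHL1 is a homeodomain factor downstream of it, and EN1 is a homeodomain factor of the midbrain and rhombomere 1, whose lineage gives rise to neurons of the superior olivary complex.

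Promoter windows are shown for Rorb and Meis2, members that set the classes apart, and for Rora, a member that both classes held. A RefSeq window on GRCm38.p6 was at hand for 7 of the 9 genes, each running from 250 bases before to 50 bases after a start site, 11 windows in all. Capitals mark matches to 6 motifs searched on both strands, namely AGGTCA for ROR receptors, TGCTGA for large MAF proteins, TGACAG for MEIS proteins, GTAAACA for forkhead proteins, CAGCTG as an E box and TATAAA as a TATA box. Each sequence is written 5′ to 3′ on the strand of the gene, which is the minus strand for Rorb and Meis2 and the plus strand for Rora.
Rorb window 1, chr19:19111147-19111446: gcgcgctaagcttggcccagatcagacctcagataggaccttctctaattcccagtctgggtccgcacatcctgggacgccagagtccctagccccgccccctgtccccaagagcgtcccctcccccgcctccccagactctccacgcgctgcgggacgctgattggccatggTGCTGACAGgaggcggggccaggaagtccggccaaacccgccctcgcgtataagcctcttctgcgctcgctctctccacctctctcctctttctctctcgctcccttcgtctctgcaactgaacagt
Rorb window 2, chr19:19001068-19001367: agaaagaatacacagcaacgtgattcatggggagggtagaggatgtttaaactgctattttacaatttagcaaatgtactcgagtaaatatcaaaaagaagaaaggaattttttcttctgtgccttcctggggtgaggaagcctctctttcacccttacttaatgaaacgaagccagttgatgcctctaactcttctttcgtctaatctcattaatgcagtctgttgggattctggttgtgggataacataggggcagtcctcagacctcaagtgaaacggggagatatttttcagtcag
Meis2 window, chr2:116064570-116064869: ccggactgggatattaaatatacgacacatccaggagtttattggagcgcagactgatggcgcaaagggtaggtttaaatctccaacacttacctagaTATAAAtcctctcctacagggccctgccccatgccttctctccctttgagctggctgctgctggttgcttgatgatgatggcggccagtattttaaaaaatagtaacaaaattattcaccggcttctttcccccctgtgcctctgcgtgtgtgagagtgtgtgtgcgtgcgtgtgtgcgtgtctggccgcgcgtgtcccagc
Rora window, chr9:68653536-68653835: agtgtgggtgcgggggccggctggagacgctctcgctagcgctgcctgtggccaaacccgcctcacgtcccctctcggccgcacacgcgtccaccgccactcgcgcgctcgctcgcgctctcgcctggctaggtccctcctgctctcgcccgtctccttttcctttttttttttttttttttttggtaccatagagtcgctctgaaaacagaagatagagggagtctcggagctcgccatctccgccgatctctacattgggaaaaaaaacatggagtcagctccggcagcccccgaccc

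The first Rorb window held the MAF motif at bases 174 to 179 and the MEIS motif at bases 177 to 182, so that the motifs overlap in the run TGCTGACAG. Among all 32851 RefSeq windows, 19.5% held the MAF motif, 19.2% the MEIS motif and 0.642% this run. The run was not among the 6 motifs searched and was taken from the overlap in this window. Its low share therefore does not measure how rare overlaps of motifs are. The second Rorb window, which lies within the gene, and the Rora window held none of the 6 motifs. The Meis2 window, which also lies within its gene, held TATAAA at bases 99 to 104, at -152 from the start site. In some position, TATAAA was present in 13.6% of all windows. The ROR motif was present in 16.3% of all windows, the E box in 16.3% and the forkhead motif in 3.65%. Outside the printed windows, the MAF motif occurred in the Atoh1 window and in 2 of the 3 Foxp1 windows, the MEIS motif in the En1 window, 1 of the 2 Barhl1 windows and 1 Foxp1 window, the E box in the En1 window and both Barhl1 windows, and the ROR motif in 1 Barhl1 window. A match of letters is a description and does not show binding.

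Maf, Rorb and Meis2 were held by a larger share of pLSOs than of LOCs, Rora was common in both classes, Foxp2 and Foxp1 were held by a minority of neurons, and En1, Atoh1 and Barhl1 were at or near 0. The share was at least 20 percentage points higher in pLSOs for 3 of the 9 genes and in LOCs for 0. Over all 15566 genes held by at least 1 neuron, 3.62% passed this rule in favour of pLSOs and 2.15% in favour of LOCs, and among the 5651 genes held by at least 20% of a class, 9.96% and 5.93% did. The members past the rule were Maf, Rorb and Meis2. Because the genes were chosen with these libraries known, and the study lists Maf and Rorb for its first cluster from the same libraries, passing is not independent evidence of a principal neuron pattern, and the other 6 genes did not pass at this threshold.

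**Figure D1:**
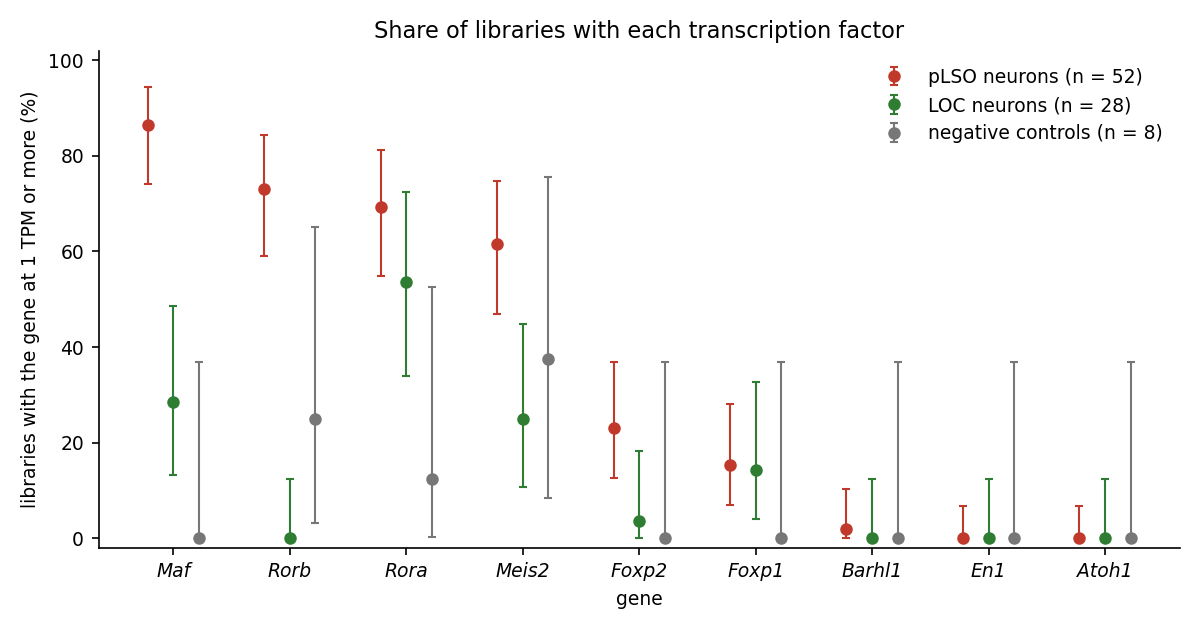
Share of libraries with each transcription factor at 1 TPM or more (y axis, percent) for the 9 genes (x axis) in 52 pLSOs, 28 LOCs and 8 negative controls. Points are shares and bars are exact 95% intervals for counting error; Rorb was at 73.1% of pLSOs and 0 of 28 LOCs, and En1 and Atoh1 were at 0 in every group.

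Rorb (ENSMUSG00000036192, chromosome 19 from 18930605 to 19111196, minus strand, on GRCm38) encodes RORB, a nuclear receptor known from cortical layer 4 and the retina. It ranged from 0 to 136 TPM in pLSOs, with a median of 6 TPM and a mean of 18.4 ± 28.8 TPM (SD, n = 52), and it was listed at 0 in all 28 LOCs. It was detected in 38 of 52 pLSOs, 73.1% (95% interval 59.0 to 84.4%), while 0 of 28 LOCs allows a share of up to 10.7%. Every neuron with Rorb was therefore a pLSO, although 14 pLSOs were listed at 0 like the LOCs. Of the 15566 genes, 3 had a share difference at or above that of Rorb, itself included. Because LOCs were listed at 0, no fold is given. Rorb reached 65 TPM and 1 TPM in 2 of the 8 controls, 3 of 52 pLSOs lay above the higher of these values, and the part of material from the slice in the values of neurons was not tested.

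Maf (ENSMUSG00000055435, chromosome 8, minus strand, bases 115682942 to 115707794) encodes the large MAF protein known for lens development and for the differentiation of touch receptor neurons. It ranged from 0 to 32 TPM in pLSOs with a median of 3 TPM, and from 0 to 3 TPM in LOCs with a median of 0. The classes overlapped only at these low values, since 40.4% of pLSOs and 0 of 28 LOCs were at 5 TPM or more. At 2 TPM or more, the shares were 65.4% of pLSOs and 10.7% of LOCs. Maf was at 0 in all 8 controls, which allows a share of up to 37.5%, but a control library that was left out, NC6, held it at 2 TPM. Above 2 TPM, Maf was held by 28 of 52 pLSOs and 1 of 28 LOCs. Of the 8 LOCs with Maf, 7 held Isl1, a LIM homeodomain gene of olivocochlear neurons that was listed at 0 in all pLSOs, and 1 held Spp1.

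Meis2 (ENSMUSG00000027210, chromosome 2 from 115863064 to 116065839, minus strand) is the TALE homeodomain member of the group. It ranged from 0 to 335 TPM in pLSOs with a median of 4.5 TPM and a mean of 38.1 ± 66.2 TPM (SD, n = 52), and from 0 to 20 TPM in LOCs with a median of 0 and a mean of 2.36 ± 5.36 TPM (SD, n = 28). Detection reached 61.5% among pLSOs (32 of 52, 95% interval 47.0 to 74.7%) but 25.0% among LOCs (7 of 28, 10.7 to 44.9%). The classes overlapped between 0 and 20 TPM. Mean Meis2 was 16.2 times as high in pLSOs as in LOCs, and mean log2(TPM + 1) was 2.91 ± 2.88 in pLSOs and 0.73 ± 1.45 in LOCs (SD, n = 52 and 28).

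Meis2 was also the member most prominent in negative controls, where it was listed at 10, 84 and 555 TPM in 3 libraries and at 0 in 5. The share of controls was 37.5% (95% interval 8.52 to 75.5%), and that interval holds the shares of both LOCs and pLSOs. The left-out control NC6 held Meis2 at 302 TPM. No pLSO exceeded 555 TPM. When detection was counted only above the highest control value, 0 of 52 pLSOs held Meis2, 3 held Rorb, 31 held Rora and 45 held Maf, and the members past the 20-point rule were Maf and Rora in place of Maf, Rorb and Meis2. This alternative was added after the data had been seen, and for Rorb and Meis2 it rests on 1 control library each. The share of all genes past the rule was not computed for it.

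**Figure D2:**
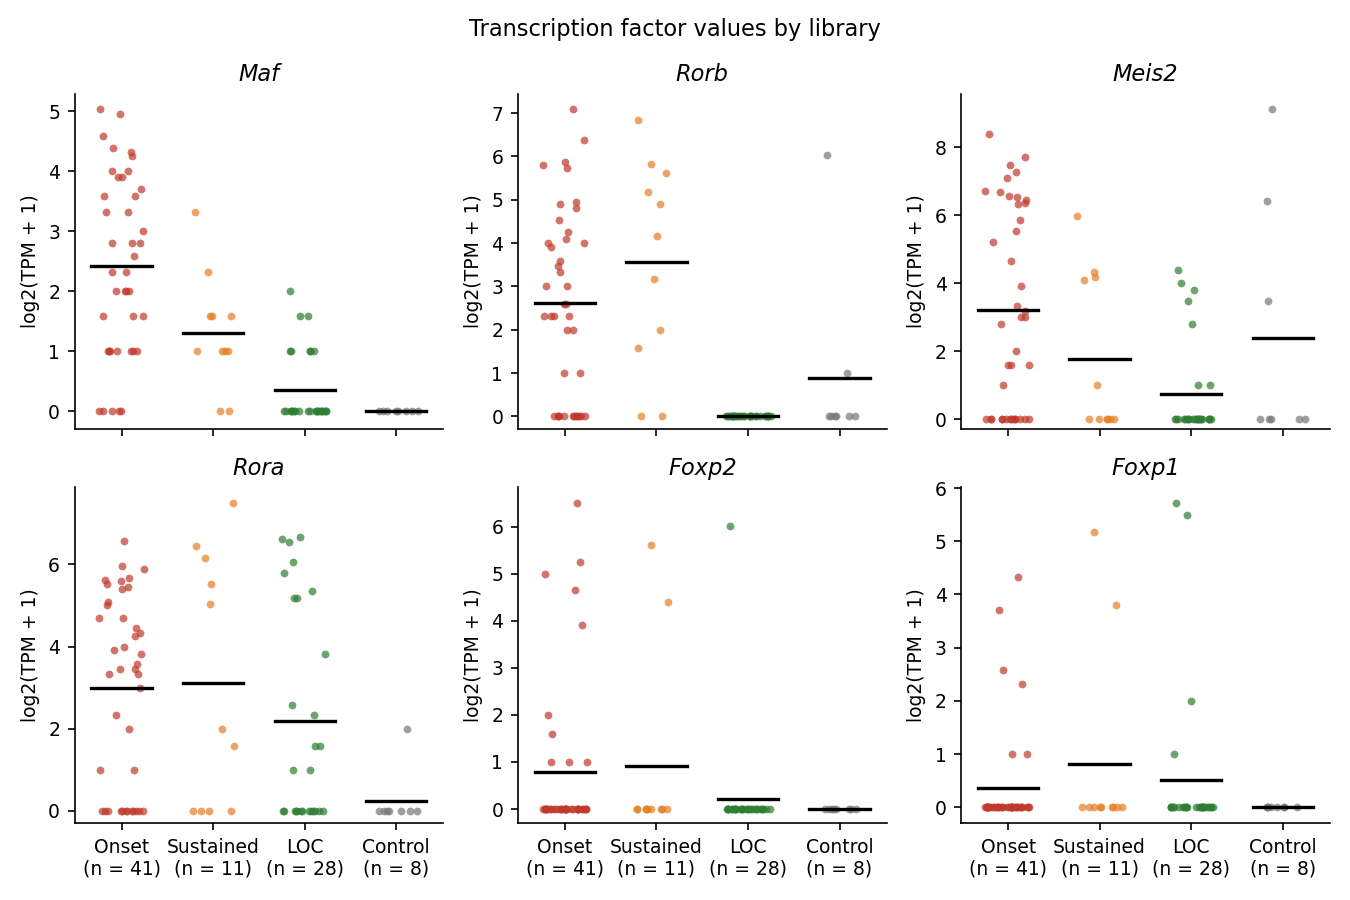
Values of 6 transcription factors as log2(TPM + 1) (y axis) in each of 41 Onset, 11 Sustained, 28 LOC and 8 negative control libraries (x axis). Points are libraries and black lines are group means; Rorb was at 0 in every LOC, and in Maf and Meis2 the highest LOC values of 3 and 20 TPM lay within the range of the pLSOs.

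Rora (ENSMUSG00000032238, chromosome 9 from 68653786 to 69388246, plus strand) encodes RORA, the receptor that is mutated in the staggerer mouse and needed by Purkinje cells. It ranged from 0 to 180 TPM in pLSOs with a median of 10 TPM, and from 0 to 101 TPM in LOCs with a median of 1 TPM. The share of neurons with Rora was 69.2% for pLSOs (36 of 52, 95% interval 54.9 to 81.3%) against 53.6% for LOCs (15 of 28, 33.9 to 72.5%), and the intervals overlapped widely. Mean Rora was 22.8 ± 32.8 TPM over pLSOs against 19.6 ± 32.7 TPM over LOCs (SD, n = 52 and 28), a difference smaller than the spread over neurons. The share difference of 15.7 points was reached or exceeded by 6.61% of the 15566 genes, and with a threshold of 5 TPM the shares were 57.7% and 35.7%. Rora and Rorb, close relatives, thus had unlike patterns across the classes.

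Foxp2 (ENSMUSG00000029563, chromosome 6 from 14901349 to 15441977, plus strand), the forkhead gene linked to speech in humans, appeared in 12 of 52 pLSOs (23.1%, 95% interval 12.5 to 36.8%), at up to 90 TPM, and in 1 of 28 LOCs, at 64 TPM. The difference of 19.5 points lay just under the 20-point rule, the nearest member inside being Meis2 at 36.5 points. In neurons with at least 2000 detected genes, the shares were 25.0% of 44 pLSOs and 4.55% of 22 LOCs, which is past the rule. The mean of 5.23 TPM in pLSOs was 3.57 TPM without its highest neuron, and the LOC mean of 2.29 TPM was that of a single neuron.

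Foxp1 (ENSMUSG00000030067, chromosome 6 from 98925338 to 99522721, minus strand), a partner with which FOXP2 can form dimers, was found in 8 of 52 pLSOs (15.4%, 95% interval 6.88 to 28.1%) and likewise in 4 of 28 LOCs (14.3%, 4.03 to 32.7%). The highest value was 35 TPM among pLSOs and 52 TPM among LOCs, and the classes overlapped throughout. The mean was 2.06-fold higher in LOCs, 3.57 against 1.73 TPM, but 2 LOCs at 52 and 44 TPM made up most of that mean. Both Foxp1 and Foxp2 were held by 1 pLSO and 0 LOCs, a count too small to say whether they occur together. Both genes were at 0 in all 8 controls.

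En1 (ENSMUSG00000058665) and Atoh1 (ENSMUSG00000073043) were listed at 0 in all 80 neurons, which allows a share of up to 3.75%. Barhl1 (ENSMUSG00000026805) was listed at 1 TPM in 1 Onset neuron and at 0 in the other 79 neurons. With whole-number TPM and no counts, the depth behind such a 0 is unknown, so transcripts of these genes were not detectable here rather than shown to be absent. All 3 genes were also at 0 in the 8 controls.

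By mean TPM, at least 2-fold higher values in pLSOs were found for 4 of the 9 genes, Maf, Rorb, Meis2 and Foxp2, and at least 2-fold higher values in LOCs for Foxp1. This fold was common, since 31.7% of the 9762 genes whose mean reached 1 TPM in either class passed it in favour of pLSOs and 24.2% in favour of LOCs. Levels of different genes cannot be compared as deposited, because the values fell along the table: among genes held by at least 5% of neurons, the median of the mean TPM was 10.3 in a stretch of rows that holds Meis2 and 1.34 in a later stretch that holds Maf, with median shares of 21.3% and 13.8% of neurons. After values had been rescaled to the exon length of each gene, the mean in pLSOs was 62.6 ± 76.98 for Maf, 55.2 ± 79.9 for Rorb, 49.4 ± 65.2 for Rora and 45.7 ± 87.1 for Meis2 (rescaled TPM, SD, n = 52). Foxp2 followed at 6.81 ± 20.1 and Foxp1 at 3.14 ± 10.6. The first 4 genes did not differ from each other beyond the spread over neurons, nor did Foxp2 from Foxp1. On this scale, the LOC means were 38.5 ± 64.0 for Rora, 5.80 ± 21.0 for Foxp1, 3.50 ± 18.5 for Foxp2, 3.19 ± 5.34 for Maf and 2.20 ± 4.90 for Meis2 (SD, n = 28), and Rora stood first.

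Onset and Sustained neurons held most members in like shares, and Meis2 was the only one at least 20 points apart, at 65.9% of 41 Onset and 45.5% of 11 Sustained neurons. Over all 14346 genes held by a pLSO, 10.1% were this far apart in either direction (2.31% with the higher share in Onset and 7.81% in Sustained neurons), so a count of 1 of 9 in either direction was close to the share among all genes. With 11 Sustained neurons, the interval of the lower share ran from 16.7 to 76.6%. Mean Meis2 was 45.6 ± 72.4 TPM in Onset and 10.5 ± 18.8 TPM in Sustained neurons.

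Maf was held by 87.8% of Onset and 81.8% of Sustained neurons, but at different heights. Its median was 4 TPM in Onset neurons (range 0 to 32) and 1 TPM in Sustained neurons (range 0 to 9), and at 5 TPM or more the shares were 48.8% and 9.09%. Mean log2(TPM + 1) was 2.42 ± 1.51 in Onset and 1.31 ± 0.95 in Sustained neurons (SD, n = 41 and 11), a difference within the spread of the Onset neurons. Rorb had the opposite order, with medians of 5 TPM in Onset and 17 TPM in Sustained neurons and mean log2(TPM + 1) of 2.61 ± 2.15 and 3.57 ± 2.38. For Rora, the shares were 70.7% and 63.6%. The ranges of both groups overlapped for every member detected in both.

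**Figure D3:**
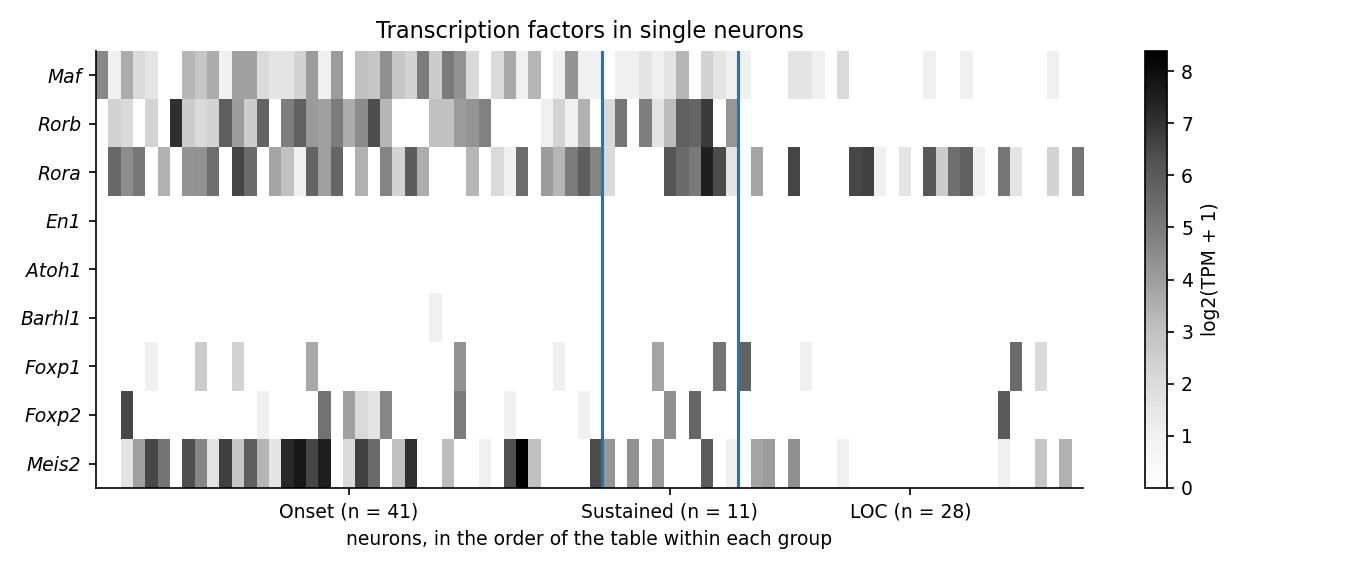
Values of the 9 transcription factors (rows) as log2(TPM + 1) (grey scale) in each neuron (columns), in table order within 41 Onset, 11 Sustained and 28 LOC neurons, which blue lines separate. The Rorb row is empty in the LOCs, the Rora row is filled in both classes, and the En1 and Atoh1 rows are empty throughout.

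Within single neurons, the members were combined in varying ways. A pLSO held a median of 3 of the 9 genes (range 1 to 5) and a LOC a median of 1 (range 0 to 3), while controls held a median of 1 (range 0 to 2). Of Maf, Rorb and Meis2, 19 pLSOs held all 3, 25 held 2 and 8 held 1, and every pLSO held at least 1. Among LOCs, 15 held none of these genes, 11 held 1, 2 held 2 and 0 held all 3. Maf and Rorb were together in 32 of 52 pLSOs, Maf and Meis2 in 28 and Rorb and Meis2 in 22. These 3 genes were those with the largest share differences, so the counts describe the same difference by neuron.

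**Figure D4:**
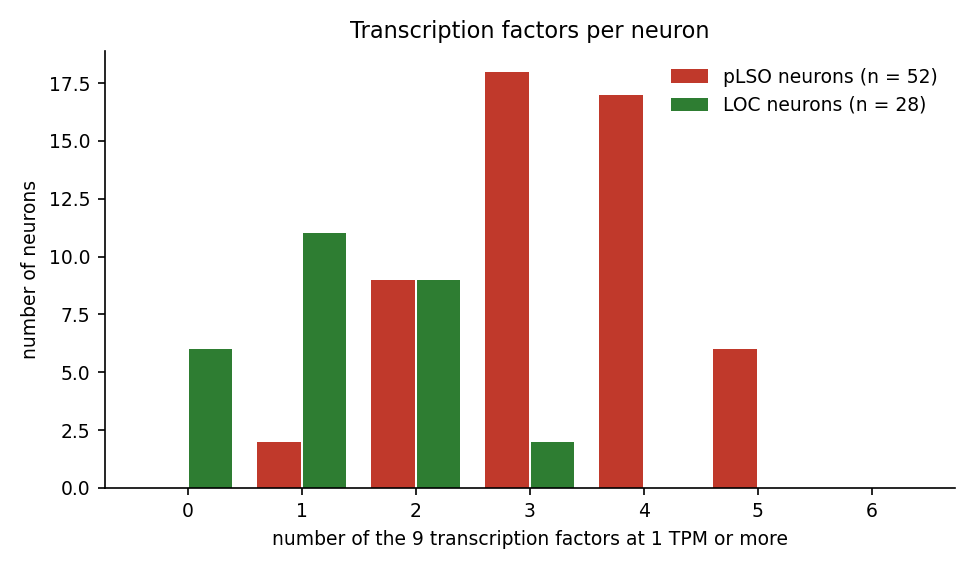
Number of neurons (y axis) by how many of the 9 transcription factors they held at 1 TPM or more (x axis), for 52 pLSOs and 28 LOCs. Most pLSOs lay at 3 or 4 genes (18 and 17 neurons) and most LOCs at 1 or 2 (11 and 9 neurons).

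Over the 80 neurons and 4800 genes held by at least 20% of them, the genes most like Maf were Spp1 (Spearman rho 0.56), Ptprd (0.54) and Sparcl1 (0.53), and those most like Rorb were Spp1 (0.56), Ptprd (0.54) and Ldhb (0.53). These coefficients of log2(TPM + 1) pool both classes, and the neurons share their class difference and their library, so they describe the contrast of pLSOs and LOCs again. For Rora and Meis2, no gene reached 0.5. In the Onset neurons, 80 relations between members and recorded electrical features were computed and none reached 0.5 in size. In LOCs, 1 of 32 did, Maf with the decay time of spontaneous excitatory currents (rho -0.53, n = 28), where 8 LOCs held Maf.

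Relatives and partners of the members were examined by the same rule, which 3.62% of all genes held by a neuron, and 9.96% of those held by at least 20% of a class, passed in favour of pLSOs. Nothing particular to the lists is read from their counts. Of the other 6 MAF family genes, 1 passed the 20-point rule, Mafg, a small MAF protein that pairs with other leucine zipper factors, at 30.8% of pLSOs and 7.14% of LOCs. The third ROR gene and both REV-ERB genes, which compete for ROR motifs, all stayed within 20 points; of these, Nr1d1 was detected in 71.2% of pLSOs and 57.1% of LOCs. En2, the other engrailed gene, was at 0 in all neurons. Neither of the other 2 FOXP genes passed. Of 8 MEIS, PBX and PKNOX genes, 1 passed, Pbx3, at 21.2% of pLSOs and 0 of 28 LOCs. Of the 8 controls, 1 held Pbx3, 1 held Nr1d1 and 0 held Mafg.

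Among 7 genes of ATOH1 partners and lineage, Tcf4, an E protein with which ATOH1 pairs, was detected in 75.0% of pLSOs and 28.6% of LOCs, and the other 6 stayed within 20 points. Of 4 potassium channel genes linked with MAF in touch receptors, Kcna1, a low-voltage-activated subunit, passed at 75.0% against 42.9%. Of 11 genes known as ROR targets, Itpr1, an intracellular calcium release channel, passed at 46.2% of pLSOs and 3.57% of LOCs, whereas Pcp4, a calmodulin regulator, was detected in 76.9% and 78.6%. In the 8 controls, Pcp4 was detected in 3, at up to 347 TPM against up to 17 TPM in pLSOs. Tcf4 and Kcna1 were detected in 2 controls each and Itpr1 in 0. The median share difference was 0 points in the MAF family list, 1.92 points in the MEIS and PBX list, 7.83 points in the channel list and -1.65 points in the ROR target list, beside 1.92 points over all 15566 genes and 15.7 points over the 9 members.

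Another 10 transcription factors, which the study listed for its first cluster from these same libraries, all passed the rule in favour of pLSOs, which is not independent evidence. Their median difference was 43.4 points. Bhlhe41, a clock-related repressor, was detected in 90.4% of pLSOs and 46.4% of LOCs, Bhlhe40 in 59.6% and 0 of 28, Tshz2 in 69.2% and 14.3%, and Tcf4 and Pbx3 as above. Zfp385b was detected in 67.3% and 21.4%, Hes1 in 53.8% and 14.3%, Zkscan3 in 51.9% and 28.6%, Cux2 in 50.0% and 14.3%, and Mitf, a melanocyte factor, in 50.0% and 7.14%. Their shares in pLSOs lay in the range of Maf, Rorb, Rora and Meis2 or below, apart from Bhlhe41. Of these 10 genes, 5 were detected in at least 1 of the 8 controls. Bhlhe41 was in 5 controls, Bhlhe40, Hes1 and Tcf4 in 2 each and Pbx3 in 1. The share of controls with Bhlhe41, 62.5%, lay above its share of LOCs. The part of material from the slice in these shares was not tested.

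The factors of olivocochlear neurons had the opposite order. Isl1 was detected in 78.6% of LOCs and 0 of 52 pLSOs, Gata3 in 78.6% and 13.5%, and the other 4 of 6 stayed within 20 points. The study lists Isl1 and Gata3 for its second cluster from these same libraries, so their shares are not independent evidence. Among 6 transmitter genes, the vesicular glutamate transporter Slc17a6 was detected in 69.2% of pLSOs and 25.0% of LOCs, and Gad2, which makes GABA, in 25.0% and 71.4%. In the 8 controls, Slc17a6 and Gad2 were detected in 3 each, Gata3 in 1 and Isl1 in 0. For both Slc17a6 and Gad2, the share of controls, 37.5%, lay above that of the class with the lower share. The part of material from the slice was not tested. Among the 36 pLSOs with Slc17a6, 28 held Rorb and 31 held Maf. Among the 7 pLSOs with the glycine transporter Slc6a5, 5 held Rorb and 6 held Maf. Of all 52 pLSOs, 38 held Rorb and 45 held Maf, so no tie to a transmitter gene is read from these counts.

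**Figure D5:**
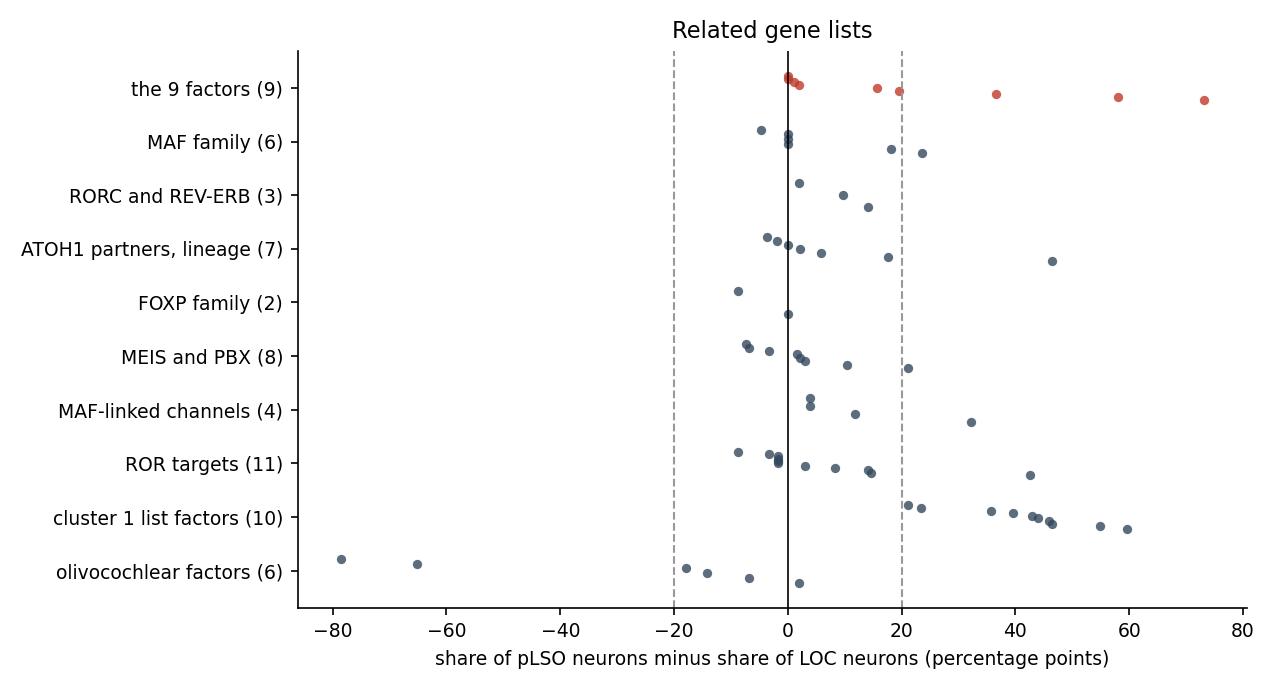
Share of pLSOs minus share of LOCs with the gene detected (x axis, percentage points) for the 9 transcription factors and for related gene lists (y axis, number of genes in brackets). Each point is a gene and dashed lines mark 20 points in each direction; the 9 factors ranged from 0 to 73.1 points, and Isl1 and Gata3 lay at -78.6 and -65.1 points in the olivocochlear list.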

How the data were processed

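The authors made Smart-seq2 libraries from the aspirated cell contents, and the submitters' processing notes name FastQC, Trim Galore 0.4.2, STAR, Picard 1.115 and featureCounts. The deposited score values are TPM rounded to whole numbers, and a library sums to between 999773 and 1000026. No counts were used, so the depth per sample behind a value is unknown. Gene names, positions and exon lengths were taken from Gencode vM21, in which 37570 of 38887 genes have a length.

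Groups follow the firing pattern labels. The 8 libraries left out were chosen in earlier work on these data, because labels and a supplementary table of the study did not match for them. This was not checked again here, and the groups with all 96 libraries were run as an alternative. The members, the gene lists and the rules were chosen with earlier results of these data known. Shares are of libraries at 1 TPM or more and means are arithmetic. The share rule is a difference of 20 percentage points, and the fold rule a 2-fold ratio with a mean of at least 1 TPM in a class. Both rules were applied to all genes. Their code was also run on simulated neurons with a planted share difference far past the limit. That run checks the code only and cannot show how the rules perform on these libraries. Named are the 9 members and the 5 neuron markers. Other listed genes are named where they passed the share rule or were held by at least 50.0% of a class. En2 and Slc6a5 are named as well. Also named are the 3 genes most like each member where rho was 0.5 or more.

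For levels across genes, values were multiplied by the length found at the row of a gene when all lengths stand in ascending order, divided by its own length and scaled to the same library total. This assumes how lengths were assigned. Of 5 versions, which differ in bases subtracted and first row, the version kept used rows from 2501 on and subtracted none, because after it 61 ribosomal protein genes had the smallest SD (1.17 on the log2 scale, against 1.64 as deposited). Its form was chosen after the values were seen. Calculations used Python 3.11.15, pandas 2.3.3, NumPy 2.4.6 and SciPy 1.17.1, and figures matplotlib 3.10.9.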

Additional observations from a re-analysis of the deposited data

Results flagged for a closer look

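In the 8 negative controls, a single library stood far from the others for each of the 3 members found there, with 65 TPM for Rorb, 3 TPM for Rora and 555 TPM for Meis2. The mark compares the gap to the nearest value with the range of the group. Most other values of these genes in controls were 0, and a gene above 0 in only 1 control is always marked. The marks therefore carry little weight, and no rate by chance is given. Libraries left out of the comparisons also held members at values above those of the 8 controls. The control NC6 held Maf at 2 TPM, the only control with Maf, and it also held Rora at 2 TPM and Meis2 at 302 TPM, both below the highest of the 8 controls. The library cell_39 held Maf at 2 TPM and En1 at 2 TPM, the only value of En1 above 0 in a neuron. The library cell_85 held Maf at 1 TPM, Rora at 66 TPM and Barhl1 at 6 TPM. Rora was at 10 TPM in cell_54, Foxp1 at 7 TPM in cell_78 and Foxp2 at 4 TPM in cell_36.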

How the results depend on the processing

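No paired analysis was possible because the labels give neither animals nor shared replicate numbers and each group counts as 1 sample. The number of members with a share at least 20 points higher in pLSOs was 3 at 1, 2 and 10 TPM and with all labelled libraries, 4 at 5 TPM (with Rora), 4 in neurons with at least 2000 detected genes and 4 for Onset neurons alone (both with Foxp2), and 2 above the highest of the 8 controls or of all 10. It was 5 at a limit of 15 points and 3 at 30 points; both limits were added after Foxp2 had been seen at 19.5 points. The number of members at least 20 points apart between Onset and Sustained neurons was 2 at 2 TPM (Maf and Meis2), and at 5 and 10 TPM the 1 member was Maf. The share of all genes past the share rule or the fold rule was computed at the main settings only. Counts at other settings, for either rule, have no such share beside them, and nothing about the members is read from them. The median number of members per LOC was 0 at 10 TPM. The number of members with a 2-fold higher mean in pLSOs was 3 to 5 over its alternatives, and 3 in each of the 5 versions of rescaling, across which the pLSO mean of Maf ranged from 62.6 to 78.2 and that of Meis2 from 32.7 to 45.7 rescaled TPM, with the order Maf, Rorb, Rora, Meis2 in each. Of 35 alternatives for single members, 31 moved the share difference by less than the counting error of the pLSO share alone. Another 4 moved it by more (Maf and Rorb at 5 and 10 TPM). This limit left out the error of the LOC share, which for Maf had an interval from 13.2 to 48.7%. The split into 31 and 4 is therefore not a comparison with the error of the difference. No difference past 20 points changed sign. The sign changed in 3 alternatives for differences near 0, for Barhl1 (1.92 to -1.55 points) and Foxp1 (1.10 to -2.38 points) with all labelled libraries and for Foxp1 (-2.27 points) in neurons with at least 2000 detected genes. The cause was not tested.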
